A study of Mus musculus with 8 samples.

Results

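The adipocyte lineage genes examined here are 9 genes of the mouse, set against the 22380 protein-coding genes of the annotation. Cebpd is listed there as a pseudogene and so is not part of that total. The genes were picked by name and placed by the GENCODE vM1 annotation of build mm9. The 5 factor genes were Pparg, Cebpa, Cebpb, Cebpd and Zfp423, and the 4 product genes were Adipoq, Fabp4, Lpl and Plin1. For each gene, a peak with its centre no more than 1000 bases from an annotated start of transcription was counted as a start-site peak. Peaks in the gene or within 50 kb of either end were collected too.

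Stromal cells were sorted from the bone marrow of wild type C57BL/6J animals, 6 weeks old, to compare the chromatin of their subpopulations. Accessible DNA was marked by ATAC-seq, a method that uses the Tn5 transposase to place sequencing adapters where chromatin is open. The titles ATAC1 to ATAC7 stand for 7 libraries, and an Input library was the control. The labels do not tie a title to a sorted population, so libraries are named by title, and with 1 library per title no difference below has a replicate or a test.

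Fat cells form from stromal progenitors through a relay of transcription factors. C/EBP beta and C/EBP delta act first, and they raise PPAR gamma and C/EBP alpha, which then keep each other on and switch on the genes of the mature fat cell. ZNF423, the zinc-finger protein made from Zfp423, primes progenitors for this fate. Adiponectin (Adipoq), the fatty acid carrier FABP4, lipoprotein lipase (Lpl) and the lipid-droplet coat protein perilipin 1 (Plin1) are standard products of fat cells. In bone marrow, adipocytes and osteoblasts come from related stromal cells.

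The factor and product genes differed in the DNA just before their start. Shown here are the 150 bases upstream of the outermost annotated start of 8 members, 5′ to 3′ on the gene's strand, read from build NCBIM37 (mm9). Capitals mark CG dinucleotides, the CpG sites that are dense in many broadly used promoters. The factor genes come first.
Cebpa, chr7:35904162-35904311, plus strand: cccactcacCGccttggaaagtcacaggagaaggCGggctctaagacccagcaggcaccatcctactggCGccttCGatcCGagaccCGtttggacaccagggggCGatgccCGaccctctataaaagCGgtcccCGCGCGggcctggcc
Cebpb, chr2:167514265-167514414, plus strand: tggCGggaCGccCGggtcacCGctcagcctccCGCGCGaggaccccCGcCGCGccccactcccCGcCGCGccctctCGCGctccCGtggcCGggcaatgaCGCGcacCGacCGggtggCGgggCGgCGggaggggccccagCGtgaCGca
Cebpd, chr16:15887229-15887378, plus strand: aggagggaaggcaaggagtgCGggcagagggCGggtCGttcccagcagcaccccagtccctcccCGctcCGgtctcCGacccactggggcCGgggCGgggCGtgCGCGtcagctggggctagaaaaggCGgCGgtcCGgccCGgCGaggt
Pparg, chr6:115311089-115311238, plus strand: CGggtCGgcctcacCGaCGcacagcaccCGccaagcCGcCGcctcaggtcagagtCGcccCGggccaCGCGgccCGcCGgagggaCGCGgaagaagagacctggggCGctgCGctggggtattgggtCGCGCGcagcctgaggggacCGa
Zfp423, chr8:90483495-90483644, minus strand: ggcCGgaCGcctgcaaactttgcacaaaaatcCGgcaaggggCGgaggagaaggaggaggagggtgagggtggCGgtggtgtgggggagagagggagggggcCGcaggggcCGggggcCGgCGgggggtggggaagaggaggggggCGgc
Adipoq, chr16:23146459-23146608, plus strand: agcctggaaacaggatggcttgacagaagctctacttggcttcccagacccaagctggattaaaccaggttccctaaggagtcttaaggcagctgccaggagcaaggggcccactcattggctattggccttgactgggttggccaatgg
Lpl, chr8:71404240-71404389, plus strand: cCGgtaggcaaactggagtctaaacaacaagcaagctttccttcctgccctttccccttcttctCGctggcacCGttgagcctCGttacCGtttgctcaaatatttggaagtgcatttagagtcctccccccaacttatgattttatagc
Plin1, chr7:86877663-86877812, minus strand: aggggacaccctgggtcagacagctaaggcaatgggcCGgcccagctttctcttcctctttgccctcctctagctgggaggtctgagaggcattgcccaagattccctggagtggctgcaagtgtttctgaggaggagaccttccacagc

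These stretches hold 26 CG dinucleotides in Cebpb, 21 in Pparg, 16 in Cebpd, 12 in Cebpa and 10 in Zfp423. They hold 5 in Lpl, 1 in Plin1 and 0 in Adipoq, so every factor gene had more than any of these 3 product genes. The letters CCAAT, searched on both strands, occurred before Pparg and Adipoq (26.1% of all protein-coding genes have them in the same stretch). The C/EBP letters TTGCNNAA occurred before Zfp423, Lpl and Plin1 (5.0% of genes), and the GC box GGGCGG occurred before Cebpb, Cebpd and Zfp423 (35.4% of genes). A pair of AGGNCA letters on the same strand after a gap of 1 base, the kind of site that PPAR gamma binds with its partner RXR, occurred before 0 of these 8 members and before 0.179% of genes. A match of letters is a description and not a binding site.

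Start-site peaks divided the members in the same way. Cebpa, Cebpb and Cebpd had one in all 7 libraries, Zfp423 in 5 and Pparg in 1, whereas Adipoq, Fabp4, Lpl and Plin1 had none in any library. Among protein-coding genes, 36.8% had a start-site peak in all 7 libraries, 56.6% in at least 1 and 43.4% in no library. By library, 4 of the 9 members were called in ATAC1 (49% of protein-coding genes), 4 in ATAC2 (50.2%) and 3 in ATAC3 (43.5%). The number was 3 in ATAC4 (43.6%), 5 in ATAC5 (52.7%), 4 in ATAC6 (51.5%) and 4 in ATAC7 (42%). The members as a whole therefore stood near the share of all genes in each library, with 3 to 5 of the 5 factors and 0 of the 4 products called. A gene without a peak is one where none passed the authors' threshold. In material of many cells, fewer open cells and less opening per cell cannot be told apart.

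The same counts were made under stricter thresholds. When a fold of at least 5 was asked for, Cebpa and Cebpd remained in all 7 libraries, Cebpb in 4, Zfp423 in 2 (ATAC5 and ATAC6) and Pparg in 0. ATAC5 (49.7% of protein-coding genes) and ATAC6 (47.6%) then had 4 members called, ATAC1 (41.6%) and ATAC2 (43.2%) had 3, and ATAC3 (28.7%), ATAC4 (31.1%) and ATAC7 (27.6%) had 2. When every list was cut to the 15188 best-ranked peaks, the 3 C/EBP genes stayed in all 7 libraries, Zfp423 was called in all of its libraries but ATAC2, and Pparg was called in none. Then 3 members were called in ATAC2 (41.5%), ATAC3 (43%) and ATAC4 (43.4%), and 4 members in ATAC1 (44.2%), ATAC5 (45.5%), ATAC6 (45.8%) and ATAC7 (42%).

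Peak lists were of unequal length. ATAC2, ATAC5 and ATAC6 held 28969 to 32280 peaks, ATAC1 held 24510, and ATAC3, ATAC4 and ATAC7 held 15188 to 16027. The median fold of a library's peaks over Input ran from 5.77 in ATAC3 to 10.9 in ATAC5. Start-site peaks at 10 stromal marker genes numbered 2 to 6 by library, with Twist1 and Col1a1 called in 6 libraries, Pdgfra and Pdgfrb in 5 and Prrx1, Col3a1 and Dcn in none. The sort kept cells without CD31, CD45 and Ter119, markers of endothelial and blood cells. Per the study's methods, its starting fraction was also positive for Sca-1, encoded by Ly6a, and for PDGFR alpha, encoded by Pdgfra. Peaks numbered 1 to 6 at 9 haematopoietic markers, where Coro1a and Laptm5 were called in 5 libraries, Ptprc in 4 and Cd3e, Csf1r and Gata1 in none. They numbered 0 to 5 at 10 endothelial markers, where Esam, Egfl7 and Erg were called in 2 libraries, Pecam1 and Kdr in ATAC5 and 5 genes, Cdh5 among them, in none. ATAC5 had the highest count of both, 6 and 5, and also the highest share of all protein-coding genes, 52.7%. Their part in the results below was not tested.

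Cebpa encodes C/EBP alpha, a factor of mature fat cells and also of myeloid blood cells. Its start-site peaks formed 2 regions, and the one called in all 7 libraries, chr7:35903891-35904411 (mm9), covers the start at 35904312. The wider region around the best-ranked peak differed between libraries, from 574 bases in ATAC3 to 1716 in ATAC5. Its width ran from 709 to 1161 bases at Cebpb and from 1027 to 1760 at Cebpd. Reads and folds of different libraries are therefore not of 1 fixed stretch. At Cebpa, the wider region held 533 reads in ATAC1 against 75 in Input, 533 against 79 in ATAC2 and 411 against 41 in ATAC3. It held 307 against 46 in ATAC4, 1177 against 135 in ATAC5, 770 against 127 in ATAC6 and 372 against 45 in ATAC7. The fold over Input, which scales the library to the depth of Input, was highest in ATAC5 at 14.9 (95% counting interval 12.5 to 17.98) and lowest in ATAC4 at 7.56. ATAC2 had a fold of 10.7, ATAC3 of 10.1, ATAC6 of 9.54, ATAC7 of 9.13 and ATAC1 of 8.73. The interval of ATAC4 was 5.53 to 10.5 and did not overlap that of ATAC5. Intervals cover counting error only, since 1 library cannot show how much a repeat would vary.

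Cebpb encodes C/EBP beta, which acts early in fat cell formation and in inflammatory responses. Its start-site region, chr2:167514195-167514670, overlaps the noncoding start of its single exon. Reads were 763 in ATAC1 against 165 in Input, 372 against 103 in ATAC2, 476 against 110 in ATAC3 and 381 against 110 in ATAC4. They were 954 against 153 in ATAC5, 552 against 118 in ATAC6 and 503 against 112 in ATAC7. The fold was highest in ATAC5 at 10.7 (8.995 to 12.8) and lowest in ATAC4 at 3.92 (3.16 to 4.89). ATAC6 had a fold of 7.36, ATAC2 of 5.71, ATAC1 of 5.68, ATAC7 of 4.96 and ATAC3 of 4.37. The ATAC5 interval lay above those of ATAC1, ATAC2, ATAC3, ATAC4 and ATAC7 and met that of ATAC6, which reached 9.06. An annotated start of Tmem189 also lies within 1000 bases of the centre of this region, so the peak cannot be assigned to Cebpb alone.

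Cebpd encodes C/EBP delta, the partner of C/EBP beta in the early step. Its region, chr16:15887138-15887675, spans the start at 15887379. Reads were 927 in ATAC1 against 119 in Input, 962 against 121 in ATAC2, 718 against 111 in ATAC3 and 448 against 82 in ATAC4. They were 1297 against 119 in ATAC5, 935 against 123 in ATAC6 and 727 against 114 in ATAC7. The fold was highest in ATAC5 at 18.7 (15.5 to 22.7), followed by ATAC2 at 12.6 (10.4 to 15.3). ATAC6 had a fold of 11.97, ATAC1 of 9.57, ATAC7 of 7.04, ATAC3 of 6.53 and ATAC4 of 6.19. ATAC5 stood above every other library beyond counting error, and ATAC3, ATAC4 and ATAC7 formed the low end with overlapping intervals.

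**Figure D1:**
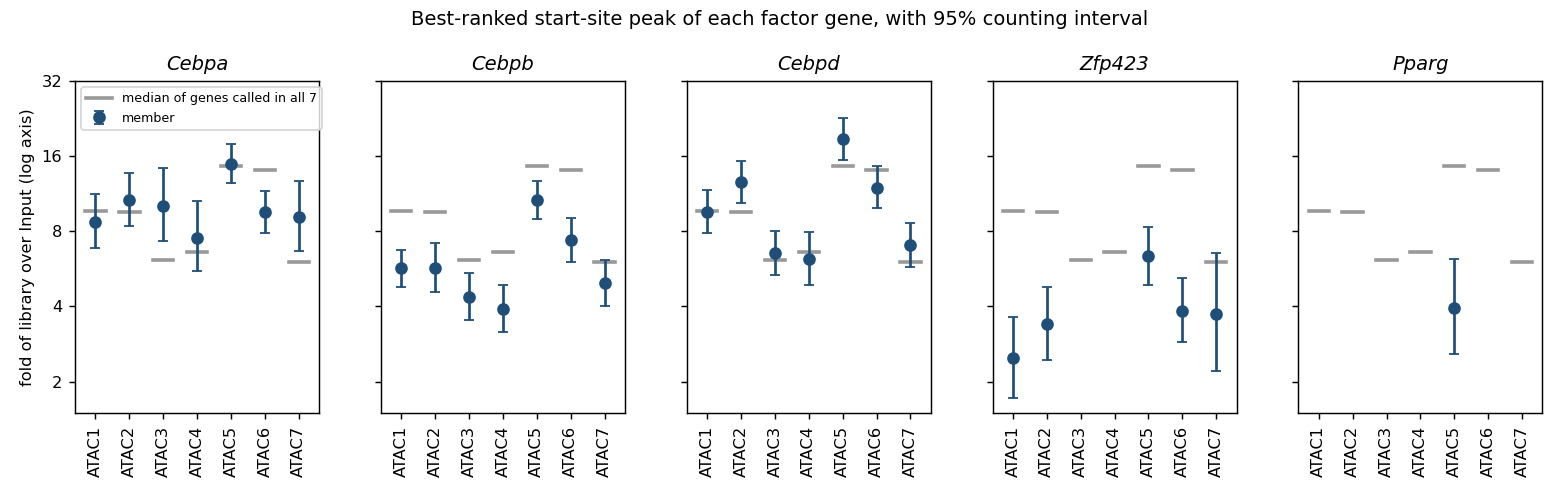
Fold of each library over Input (log axis) at the best-ranked start-site peak of the 5 factor genes, by library; points are single libraries with 95% counting intervals, grey bars give the median fold of the 8238 genes called in all 7 libraries, and no point means no peak. Cebpb lay under the grey bar in all 7 libraries, and Zfp423 and Pparg lay below Cebpb in each library where they were called. The Zfp423 points are not of 1 site: ATAC5 and ATAC7 are at internal starts, and ATAC1, ATAC2 and ATAC6 are beside the outermost start.

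The height of ATAC5 was shared by start sites in general. The 8238 protein-coding genes called in all 7 libraries had a median fold that was highest in ATAC5 (14.7) and ATAC6 (14.1). It was 9.67 for ATAC1, 9.54 for ATAC2, 6.61 for ATAC4, 6.15 for ATAC3 and 6.03 for ATAC7. Divided by that median, Cebpa in ATAC5 came to 1.02, Cebpb to 0.729 and Cebpd to 1.27. On this relative scale the highest library was ATAC3 for Cebpa (1.64), ATAC7 for Cebpb (0.823) and ATAC2 for Cebpd (1.32). ATAC6 was the lowest for all 3 genes, with 0.676, 0.522 and 0.848. The order of libraries at the C/EBP genes thus depended on the scale, and only the low place of ATAC6 was common to the 3 genes on the relative one.

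Over the 7 libraries, which share 1 Input, the log2 fold of Cebpb and Cebpd had a Pearson r of 0.945. It was 0.823 for Cebpa and Cebpb and 0.808 for Cebpa and Cebpd. The median gene had an r of 0.559 with Cebpa, 0.855 with Cebpb and 0.864 with Cebpd. The most similar protein-coding genes, among 8236 compared, were Obfc2a (0.993), Mapt (0.992) and Tgfbr3 (0.990) for Cebpb. For Cebpd they were Spsb4 (0.997), Slc26a6 (0.996) and Leprel4 (0.995). Such values were common, since 26.3% of genes had an r above 0.9 with Cebpb and 34.9% with Cebpd. Cebpa was less typical, as 0.219% of genes had an r above 0.9 with it, led by Eif3b (0.991), Zfp658 (0.979) and 2010317E24Rik (0.956).

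Pparg encodes PPAR gamma, the nuclear receptor on which fat cell formation depends. Its start-site peak was called in ATAC5 and in no other library, a pattern held by 300 protein-coding genes (1.34%). The peak, chr6:115311050-115311176, lies 126 bases upstream of the outer start at 115311239 and overlaps the CG-rich stretch printed above in part. It held 74 reads against 32 in Input, a fold of 3.96 (2.58 to 6.198), and ranked 25842 of the 31479 ATAC5 peaks. No library had a peak at the inner start at 115372084, from which the second annotated group of transcripts begins. The CpG content of the outer start was high, yet its peak was weak, at 0.270 of the ATAC5 median given above.

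Zfp423 had a start-site peak in some libraries and not in others. It was called in ATAC1, ATAC2, ATAC5, ATAC6 and ATAC7 and not in ATAC3 or ATAC4, as were 146 protein-coding genes (0.652%). Its 7 annotated starts had 3 regions in all. One lay at internal starts, chr8:90328205-90328867, 155 kb into the gene, and was called in all 5 of those libraries. It held 124 reads in ATAC1 against 38 in Input, 271 against 73 in ATAC5, 123 against 38 in ATAC6 and 64 against 19 in ATAC7. In ATAC2 it consisted of 2 peaks, with 72 reads against 23 and 139 against 53. The fold ran from 3.72 in ATAC7 to 6.36 in ATAC5, whose intervals (2.2 to 6.57 and 4.89 to 8.35) overlapped.

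The outermost start of Zfp423, at 90483494, had a region on either side. The inner one, chr8:90482858-90483007, held 91 reads against 45 in ATAC1, 219 against 91 in ATAC5 and 164 against 67 in ATAC6. The outer one, chr8:90483949-90484572, was called in ATAC2, ATAC5 and ATAC6 with 114 to 201 reads against 37 to 59. ATAC7 thus had a peak at the internal start and none at the outermost one. In ATAC1, ATAC2 and ATAC6 the fold of the best-ranked start-site peak of Zfp423, at 2.48, 3.40 and 3.85, was near the bottom of each library's start-site peaks (percentiles 0.493, 3.39 and 3.19). The percentile was 13.3 in ATAC5 and 15.95 in ATAC7. Best rank was not highest fold, since peaks at the internal starts reached 4.01 in ATAC1, 4.94 in ATAC2 and 5.10 in ATAC6.

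The product genes had no start-site peak, and they differed in what lay around them. Adiponectin is a hormone made by fat cells. Within 50 kb of Adipoq there were 29 peaks, and 25 of them lay at the start sites of Eif4a2, a translation factor gene, and Rfc4, a replication factor gene. Both of those genes had a start-site peak in all 7 libraries. The count of peaks near Adipoq therefore says little about Adipoq. The closest region to its own start lay 1970 bases upstream, chr16:23144540-23144738, between genes, and was called in ATAC1 with 58 reads against 6, ATAC4 with 48 against 6 and ATAC6 with 45 against 7. The folds of 11.9, 9.05 and 10.1 had wide, overlapping intervals (5.14 to 33.7, 3.87 to 25.9 and 4.53 to 26.6). All 3 peaks ranked low, between 90.8% and 95.6% of the way down their lists. A further region 20.8 kb downstream of the start was called in ATAC5, with 97 reads against 13.

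Fabp4, the fatty acid carrier, had 1 region in the whole neighbourhood. It lay 49.9 kb upstream, at the edge of the window, in an intron of Fabp12 (chr3:10258429-10258616). It held 235 reads against 14 in ATAC2 and 87 against 9 in ATAC6, a fold of 26.5 (15.5 to 49.3) and 15.2 (7.66 to 34.4). The starts of its neighbours Fabp12, Fabp9 and Pmp2, which encode related lipid carriers, had no peak in any library either.

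Lipoprotein lipase releases fatty acids from circulating lipoproteins. Lpl had 2 regions and no peak within the gene. The one 42.6 kb upstream, chr8:71361709-71361836, was called in ATAC2 with 39 reads against 9, ATAC5 with 89 against 10, ATAC6 with 54 against 9 and ATAC7 with 49 against 9. Its fold was 15.2 in ATAC5 (7.91 to 32.9), and 6.84, 9.44 and 6.01 in ATAC2, ATAC6 and ATAC7, with overlapping intervals. The other, 73.6 kb downstream of the start, was called in ATAC5 with 58 reads against 5.

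Plin1, which coats lipid droplets and guards them from lipases, had 8 regions, and 3 of them lay inside the gene. Introns held 2 of these, with 39 reads against 11 in ATAC5 and 52 against 16 in ATAC6 at chr7:86874261-86874317, and 36 against 11 in ATAC2 at chr7:86873281-86873295. The other, in a coding exon, was called in ATAC5 with 67 reads against 24. The most shared region, chr7:86860374-86860761, lay 17.1 kb downstream of the start and was called in every library but ATAC3. It held 284 reads against 39 in ATAC5, 166 against 35 in ATAC2, 160 against 30 in ATAC6, 113 against 26 in ATAC1, 86 against 19 in ATAC4 and 72 against 26 in ATAC7. The fold of 12.5 in ATAC5 (8.90 to 17.9) lay above that of 3.06 in ATAC7 (1.93 to 4.99) beyond counting error. The best-ranked region of a single library, 48.1 kb upstream of the start, was called in ATAC5 with 65 reads against 22. The most shared region is 1.496 kb from a start of Kif7, a gene of the Hedgehog pathway, and is nearer to it than to Plin1.

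**Figure D2:**
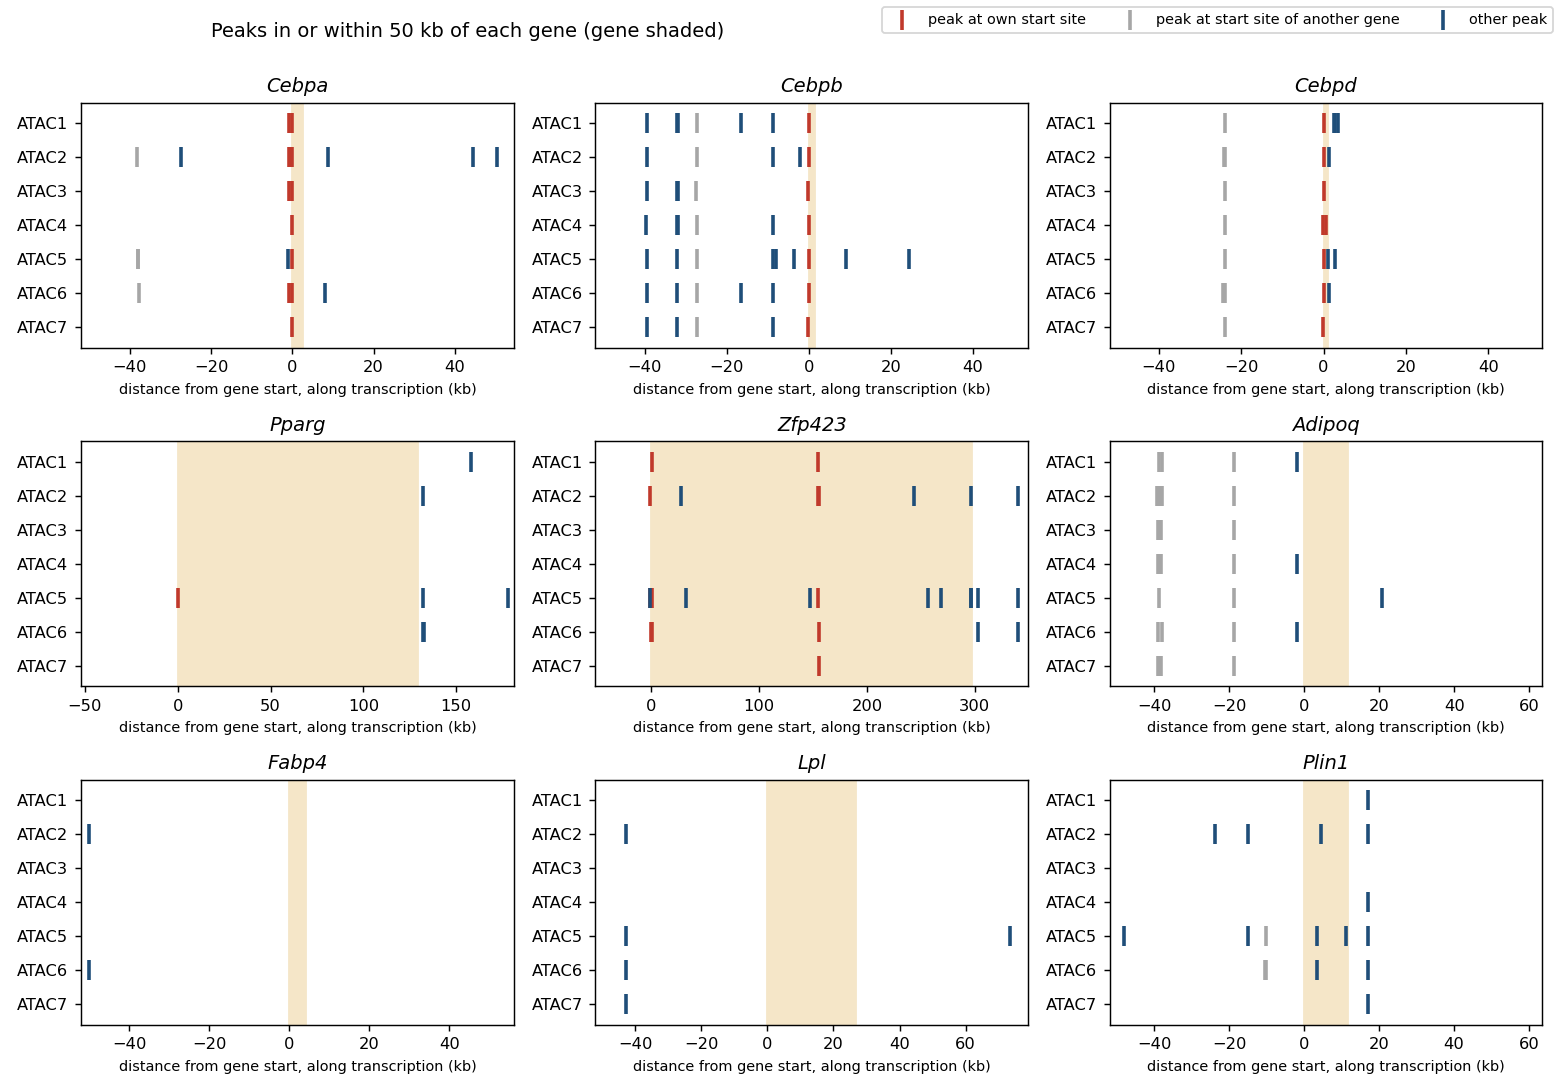
Peaks in or within 50 kb of each member, placed by distance from the outermost start along the direction of transcription (kb), 1 row per library, with the gene shaded; red marks are at the member's own start sites, grey at those of another gene, blue elsewhere. Red marks appear in 7 rows for each C/EBP gene, in 5 for Zfp423, in 1 for Pparg and in none for the 4 products, and most marks near Adipoq are grey.

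The factor genes also had peaks away from start sites. Around Cebpb, 3 regions in introns of Tmem189 were called in most libraries, at 39.5 kb, 32.03 kb and 8.81 kb upstream of the Cebpb start. The first, chr2:167474790-167475097, was called in all 7 libraries, the only region of the 43 away from any start site to be so. It held 312 reads in ATAC1 against 29 in Input, 96 against 19 in ATAC2, 237 against 21 in ATAC3 and 142 against 19 in ATAC4. It held 116 against 19 in ATAC5, 113 against 19 in ATAC6 and 108 against 20 in ATAC7. ATAC1 was highest here with a fold of 13.2 (9.02 to 20.1), followed by ATAC3 with 11.4 (7.28 to 18.7), and ATAC7 was lowest with 5.96 (3.68 to 10.1). ATAC5 had a fold of 10.5 (6.40 to 17.99), and these intervals all overlapped. The second was called in all but ATAC2 and the third in all but ATAC3. The best-ranked region of a single library near Cebpb, 3.59 kb upstream of its start, was called in ATAC5 with 62 reads against 10.

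Around Cebpa, 5 regions lay away from start sites and each was called in 1 library, 4 of them in ATAC2. The best ranked was 8.73 kb downstream of the start with 93 reads against 16. The second region at the Cebpa start, chr7:35903129-35903821, was called in ATAC1, ATAC2, ATAC3, ATAC5 and ATAC6 with 86 to 175 reads. Downstream of Cebpd, a region 2.66 kb from the start was called in ATAC1 and ATAC5, and a region 1.39 kb from it, called in ATAC2, held 71 reads against 19. A second start-site region, which reaches past the end of Cebpd, was called in ATAC4, ATAC5 and ATAC6. The other region near Cebpd that was called in all 7 libraries lay 24.0 kb upstream, at the start of Mzt2.

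Pparg had no peak between its outer start and its end. The region called in most libraries lay just past its end, 132 kb from the start, chr6:115443373-115443751. It held 117 reads against 33 in ATAC2 and 121 against 33 in ATAC5, with folds of 5.60 and 6.28. In ATAC6 it consisted of 2 peaks with 52 reads against 21 and 53 against 15. The region 158 kb from the start was called in ATAC1, with 68 reads against 25, and one 178 kb from it in ATAC5, with 52 against 26. Zfp423 had 11 regions away from its starts, and none was called in ATAC1, ATAC3, ATAC4 or ATAC7. The one called in most libraries lay 340 kb from the outermost start, past the end of the gene, and held 55 to 86 reads against 10 to 17 in ATAC2, ATAC5 and ATAC6. The best-ranked region of a single library, in an intron 269 kb from that start, was called in ATAC5 with 128 reads against 39.

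In all, 177 peaks lay in or near the 9 genes, and they merged into 61 regions. Of these, 9 lay at a member's own start, 9 at another gene's start and 43 elsewhere. ATAC5 had 44 peaks, ATAC2 36, ATAC6 31, ATAC1 22, ATAC4 16, ATAC7 15 and ATAC3 13. A peak of any kind was found for 7 of the 9 members in ATAC1 (73.7% of protein-coding genes), 9 in ATAC2 (77.4%), 4 in ATAC3 (68.5%), 5 in ATAC4 (67.8%), 8 in ATAC5 (77.6%), 9 in ATAC6 (76.5%) and 7 in ATAC7 (67.9%). The median over members was 4 peaks in ATAC2, ATAC5 and ATAC6, where all protein-coding genes had a median of 3, and 0 in ATAC3, where they had 2. It was 1 against 2 in ATAC4, and the medians were equal in ATAC1 (2) and ATAC7 (1). Away from start sites, ATAC5 had 29 peaks, ATAC2 19, ATAC6 15, ATAC1 11, ATAC4 6, ATAC7 5 and ATAC3 3. This order largely followed the length of the lists, in which the share of peaks away from start sites ran from 24.3% in ATAC4 to 53.4% in ATAC2.

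With the full lists, which differ in length, most regions away from start sites were called in few libraries. Of the 43 near members, 28 were called in 1 library (65.1%, against 50.1% of the 30239 such regions in the genome). In all, 33 were called in none but ATAC2, ATAC5 and ATAC6 (76.7%, against 61.6% in the genome), and 4 were called in 6 or 7 libraries (9.30% against 6.87%). Zfp423, the longest member with 297786 bases, had 11 of the 33 and 8 of the 28. Neighbouring regions of 1 gene thus weigh on both shares. At an equal number of peaks per library, 4 of 22 regions of every kind near members were called in 1 library, against 31 of 61 (50.8%) with the full lists. Over the genome the share was 32.4% of 26596 regions at an equal number of peaks and 40.9% with the full lists. Of those 31, 16 were called in ATAC5 alone, 11 in ATAC2 alone, 2 each in ATAC1 and ATAC6 alone, and none in ATAC3, ATAC4 or ATAC7 alone. Of the 20710 regions in the genome called in 1 library, 5666 were called in ATAC5 alone, 6342 in ATAC2 alone, 3614 in ATAC1 alone and 3449 in ATAC6 alone. Only 576 were called in ATAC3 alone, 606 in ATAC4 alone and 457 in ATAC7 alone, so such regions were rare in the genome too.

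The next sequences come from 3 regions away from start sites, the main ones near Pparg, Lpl and Adipoq, whose own starts were open in at most 1 library. That was also true of Fabp4 and Plin1, whose main regions are not printed. All 3 regions follow the rule for named regions, and the third was chosen for printing after its values were seen. Each is a 300-base window at the centre of the region, plus strand, mm9. Capitals mark C/EBP letters (TTGCNNAA), AP-1 letters (TGANTCA), RUNX letters (TGTGGT) and CCAAT, on either strand.
Pparg region, chr6:115443413-115443712: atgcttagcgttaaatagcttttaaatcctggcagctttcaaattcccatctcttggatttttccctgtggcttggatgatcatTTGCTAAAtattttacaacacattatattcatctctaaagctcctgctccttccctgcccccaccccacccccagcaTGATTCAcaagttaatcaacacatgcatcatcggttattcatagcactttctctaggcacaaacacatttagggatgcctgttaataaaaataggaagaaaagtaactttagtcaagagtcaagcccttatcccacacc
Lpl region, chr8:71361623-71361922: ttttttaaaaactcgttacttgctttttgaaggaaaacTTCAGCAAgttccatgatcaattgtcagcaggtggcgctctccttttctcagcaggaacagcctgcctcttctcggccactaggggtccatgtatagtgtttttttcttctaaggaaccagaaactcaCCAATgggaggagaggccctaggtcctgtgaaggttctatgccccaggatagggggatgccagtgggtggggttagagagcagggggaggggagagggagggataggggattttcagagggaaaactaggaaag
Adipoq region, chr16:23144490-23144789: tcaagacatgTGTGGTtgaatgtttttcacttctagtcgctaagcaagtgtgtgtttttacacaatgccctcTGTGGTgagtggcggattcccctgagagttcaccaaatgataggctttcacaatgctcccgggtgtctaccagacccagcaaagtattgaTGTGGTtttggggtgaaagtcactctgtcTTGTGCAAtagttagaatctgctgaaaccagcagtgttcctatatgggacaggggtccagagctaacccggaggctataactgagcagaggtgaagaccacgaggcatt

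The Pparg window holds 1 C/EBP and 1 AP-1 match, the Lpl window 1 C/EBP and 1 CCAAT match, and the Adipoq window 3 RUNX and 1 C/EBP match. Windows at the main regions near Fabp4 and Plin1 hold no C/EBP letters. Over all 43 regions of this kind near members, C/EBP letters were found in 9 (20.9%, against 13.96% of the 30239 regions away from start sites). AP-1 letters were found in 12 (27.9% against 30.1%) and RUNX letters in 7 (16.3% against 30.7%). GGGCGG was found in 12 (27.9% against 13.1%), CCAAT in 11 (25.6% against 30.4%) and the EBF letters CCCNNGGG in 6 (13.95% against 10.7%). The paired AGGNCA letters were found in 0 of 43, and in 0.410% of such regions in the genome. At the 9 regions on members' own starts, GGGCGG was found in 7, where 57.5% of start-site regions have it, and C/EBP letters in 0, where 7.80% have them.

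The CpG content of the start was compared with the peaks there. In the window from 250 bases before to 50 after the outermost start, the ratio of observed to expected CpG was 1.03 in Cebpb, 0.931 in Pparg, 0.868 in Cebpd, 0.853 in Cebpa and 0.685 in Zfp423. It was 0.470 in Lpl, 0.0862 in Plin1 and 0 in Adipoq. When protein-coding genes were split by this ratio into 3 classes of about equal size, a start-site peak in at least 1 library was found for 91.7% of the high class, 61.6% of the middle and 16.7% of the low. In the high class were the C/EBP genes and Pparg, each with a peak in at least 1 library, and in the low class Plin1 and Adipoq, with none. Lpl, in the middle class, had none, as did 38.4% of that class. Pparg was called in 1 library, and 10.4% of genes in the high class were called in at most 1. The 2 internal starts of Zfp423 with a peak in 5 libraries had ratios of 0.227 and 0.3, both in the low class.

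**Figure D3:**
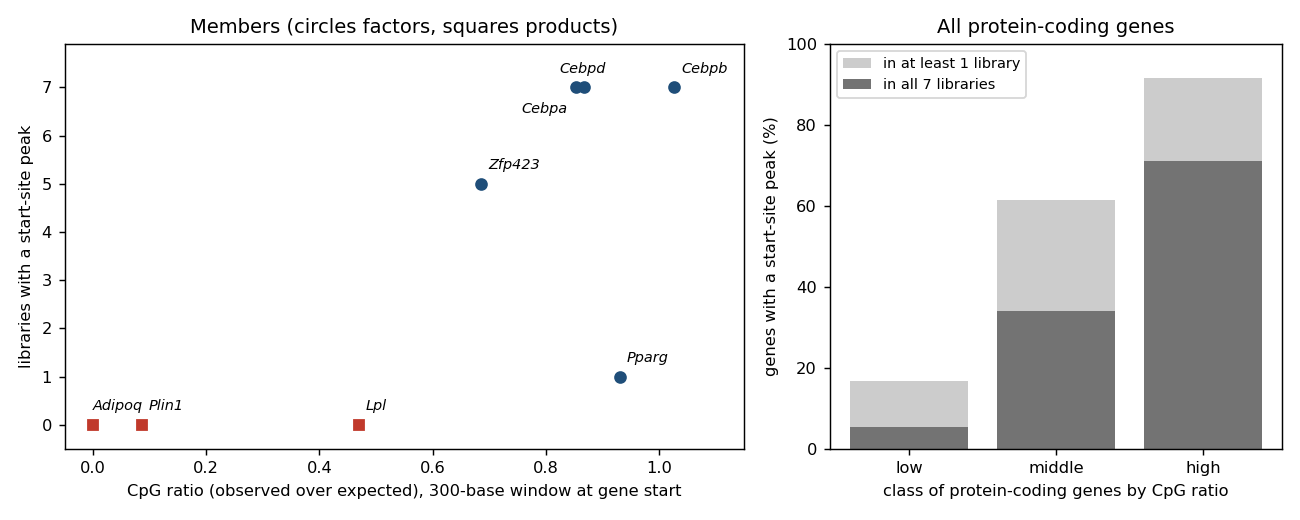
Left, ratio of observed to expected CpG in the 300-base window at the outermost start of 8 members against the number of libraries with a start-site peak (any annotated start); right, share of protein-coding genes with such a peak in at least 1 or in all 7 libraries, by class of that ratio. Pparg stands apart at the lower right, with a ratio of 0.931 and 1 library.

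Other genes of the pathway were read from lists. Of 18 further regulators of adipogenesis, 10 were called in all 7 libraries (36.8% of protein-coding genes) and 1, the early B-cell factor gene Ebf2, in none (43.4%). Those with the most reads were Nr3c1 (the glucocorticoid receptor), Cebpg, Creb1 and Klf4. Rxra, which encodes the partner of PPAR gamma, was called in ATAC1, ATAC5, ATAC6 and ATAC7, and Zfp467 in the same 5 libraries as Zfp423; both were picked out after their values were seen. The median regulator was called in 7 libraries, the median fat storage gene in 5 and the median member in 1, against 3 for all protein-coding genes. By library, 15, 14, 12, 12, 17, 15 and 12 of the 18 regulators were called in ATAC1 to ATAC7. The shares of all protein-coding genes were 49%, 50.2%, 43.5%, 43.6%, 52.7%, 51.5% and 42%. Of 13 inhibitors of adipogenesis, 7 were called in all 7 libraries (36.8% of protein-coding genes) and 2, Dlk1 and Wnt10b, in none (43.4%). Among those 7 genes, Ddit3, Klf2, Hes1 and Zfp521 had the most reads. By the CpG ratio, 9 of the 18 regulators and 7 of the 13 inhibitors were in the high class, in which 71.1% of genes were called in all 7 libraries.

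Of the 25 genes of fat storage and adipokines, 11 were called in all 7 libraries (36.8% of protein-coding genes) and 10 in none (43.4%), so the list was split much as all genes were. The 11 had the most reads at Acsl1, Acaca, Fasn and Dgat1, which encode enzymes of fatty acid activation, fatty acid synthesis and triglyceride synthesis. The 10 included Lep (leptin), Retn (resistin), Cfd (adipsin), Cidec, Plin4 and Cd36. The median CpG ratio was 0.831 for the 11 genes and 0.244 for the 10. By library 12 to 15 of the 25 were called, so the list as a whole stood near the share of all genes, as the members did.

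Of 11 genes of marrow stromal cells with adipogenic potential, 3 were called in all 7 libraries (Cd24a, Foxc1 and Ebf3) and 4 in none (Lepr, Apoe, Vcam1 and Ly6a), a split near the 36.8% and 43.4% of all protein-coding genes. Ly6a thus had no start-site peak, although the study selected its starting fraction for Sca-1, the product of that gene. For comparison, of 9 osteoblast genes Sp7, Bglap and Ibsp were called in no library, and of 9 chondrocyte genes 0 were called in all 7. The osteoblast genes numbered 1 to 6 by library and the chondrocyte genes 0 to 6, with the highest osteoblast count in ATAC6 and the highest chondrocyte count shared by ATAC2, ATAC5 and ATAC6. These 3 libraries also had the highest shares of all protein-coding genes (50.2%, 52.7% and 51.5%), and the lowest share was 42%, in ATAC7. The adipocyte genes numbered 3 to 5 of 9, a range that Zfp423 and Pparg alone set, since the other members were called in all 7 libraries or in none.

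**Figure D4:**
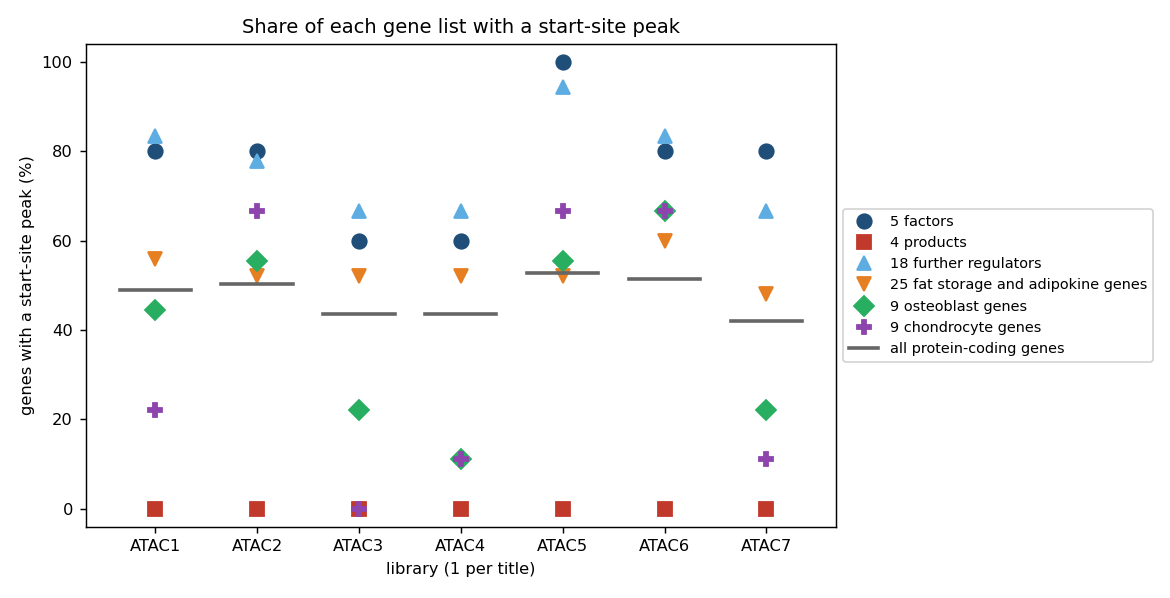
Share of genes with a start-site peak (%) in each library for the 5 factors, the 4 products, 4 further lists and all protein-coding genes (grey bars). The factors and the 18 regulators lie above the grey bar in all 7 libraries, and the products lie at 0 in each.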

How the data were processed

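ATAC-seq of bone marrow stromal cells was analyzed from the authors' peak lists. Per the study's methods, reads were aligned to mm9 with bowtie, and peaks were called per library against Input with the two-sample analysis of CisGenome at an FDR under 0.01. Read shifting and duplicate removal are not given in the sources used here. The deposited tables hold, per peak, whole read counts for the library and for Input, both in a wider outer region, and the authors' fold, a ratio with an offset of 0.01 on the Input reads. The tables have no header, and columns were identified from the values.

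Genes and start sites were taken from GENCODE vM1 on NCBIM37 (mm9), and 0 of 164103 peaks reached beyond a chromosome. Peaks that shared at least 1 base were merged into 50683 regions. Folds have 95% exact intervals for a ratio of 2 counts, which cover counting error only. Sequencing depth is not in the files; peak tables held 3437628 to 8766021 reads in outer regions. Members and gene lists were chosen with earlier results of these data known. Named were all members and, per member, the start-site region and the other region called in most libraries and the best-ranked region of 1 library; per list, the 4 genes called in most libraries, ties by scaled reads, and at most 6 called in none. Other choices were made after values were seen. The start sequence of 1 member is not reported here. No test was run, since each title had 1 library. Steps were tested on simulated data. Python 3.11.15, numpy 2.4.6, pandas 2.3.3, scipy 1.17.1, matplotlib 3.10.9 and samtools 1.23.1 were used. Input has no peak list of its own, and the coordinate lists were not used.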

Additional observations from a re-analysis of the deposited data

How the results depend on the processing

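No paired analysis was possible because no title had a second library. Start-site counts of the members were unchanged with windows of 500 bases and with any base of the peak or outer region in the window; at 2500 bases Adipoq was also called in ATAC1, ATAC4 and ATAC6. With only peaks of a fold of at least 5, ATAC7 kept 2 members by count, Pparg was called in none, Zfp423 in 2 libraries and Cebpb in 4, and ATAC7 had 9 peaks near members. With an equal number of peaks per library (15188), Pparg was called in none and Zfp423 lost ATAC2, and peaks near members numbered 14 in ATAC1 and 15 each in ATAC2, ATAC5 and ATAC6, with 22 regions in all and 4 in 1 library, as fewer peaks enter. Peaks near members numbered 12, 18, 4, 7, 28, 17 and 6 in ATAC1 to ATAC7 within 10 kb and 42, 65, 30, 34, 71, 53 and 34 within 100 kb; regions numbered 37 within 10 kb (3 in all 7 libraries, 20 in 1) and 98 within 100 kb (20 in all 7). Without start sites of other genes, ATAC3, ATAC4 and ATAC7 had 6, 9 and 8 peaks near members, and 3 regions were in all 7 libraries. These windows and lists hold different peaks by construction.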
